A study of Mus musculus with 8 samples.

Results

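A set of 9 genes that mark the macrophage lineage and its main growth factor axis was followed in the epididymal fat of male mice, a visceral white adipose depot. They were the receptor gene Csf1r, its ligand genes Csf1 and Il34, the lineage transcription factor genes Spi1 and Irf8, and the surface marker genes Adgre1, Cx3cr1, Itgam and Ptprc. The 9 genes were taken by name from a table of 34866 genes, after Ensembl identifiers without their version had been matched to symbols, and all 9 were among the 12480 genes that passed a filter on low counts. Controls were Aromatase flox/flox (4 libraries), in which loxP sites flank the aromatase gene Cyp19a1, and knockouts were aP2-Cre;Aromatase flox/flox (4 libraries), so that all 8 libraries carry the floxed gene and the knockouts carry the Cre transgene besides. Aromatase converts androgens into oestrogens, and the comparison was made to find genes downstream of Cyp19a1 in adipose tissue that take part in phosphorus metabolism. The aP2 promoter is that of Fabp4, a fatty acid binding protein gene of adipocytes that macrophages are also known to express. Mice with the transgene and no floxed gene were not analysed here, so that the effects of the transgene and of the deletion cannot be told apart. The labels give neither the age of the mice nor whether each library is a separate animal, so p-values measure the spread between libraries, which may be partly technical.

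Macrophages depend on the receptor tyrosine kinase CSF1R, which binds the ligands CSF1 and IL-34 and passes on signals for survival, proliferation and differentiation. The transcription factor PU.1, the product of Spi1, sets the myeloid lineage, switches on genes such as Csf1r and Itgam, and works together with IRF8 in monocytes and macrophages. Macrophages are a major leukocyte population of adipose tissue. Stromal and other tissue cells are known sources of CSF1.

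None of the 9 genes passed the threshold for a difference between the genotypes, 0.05 for the Benjamini-Hochberg adjusted p of the edgeR fit to all genes. Of all genes tested 0.168% passed. DESeq2 and limma-voom called none of the 9 either. By fold change 8 of the 9 were higher in the knockout and 1, Il34, was lower; of all genes tested 49.7% were higher. The median log2 fold change of the 9 genes was 0.35, against 0.00 over all genes tested. Unadjusted p-values under 0.05 with the knockout higher were found for 5 genes, Csf1r, Spi1, Adgre1, Itgam and Ptprc, where 3.52% of all genes had one. In the same 5 genes each knockout library was above each control library, which held for 2.52% of all genes. Adjusted p-values of the 9 genes lay between 0.333 and 0.946. In bulk tissue a larger number of macrophages and more RNA per macrophage cannot be told apart.

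**Figure D1:**
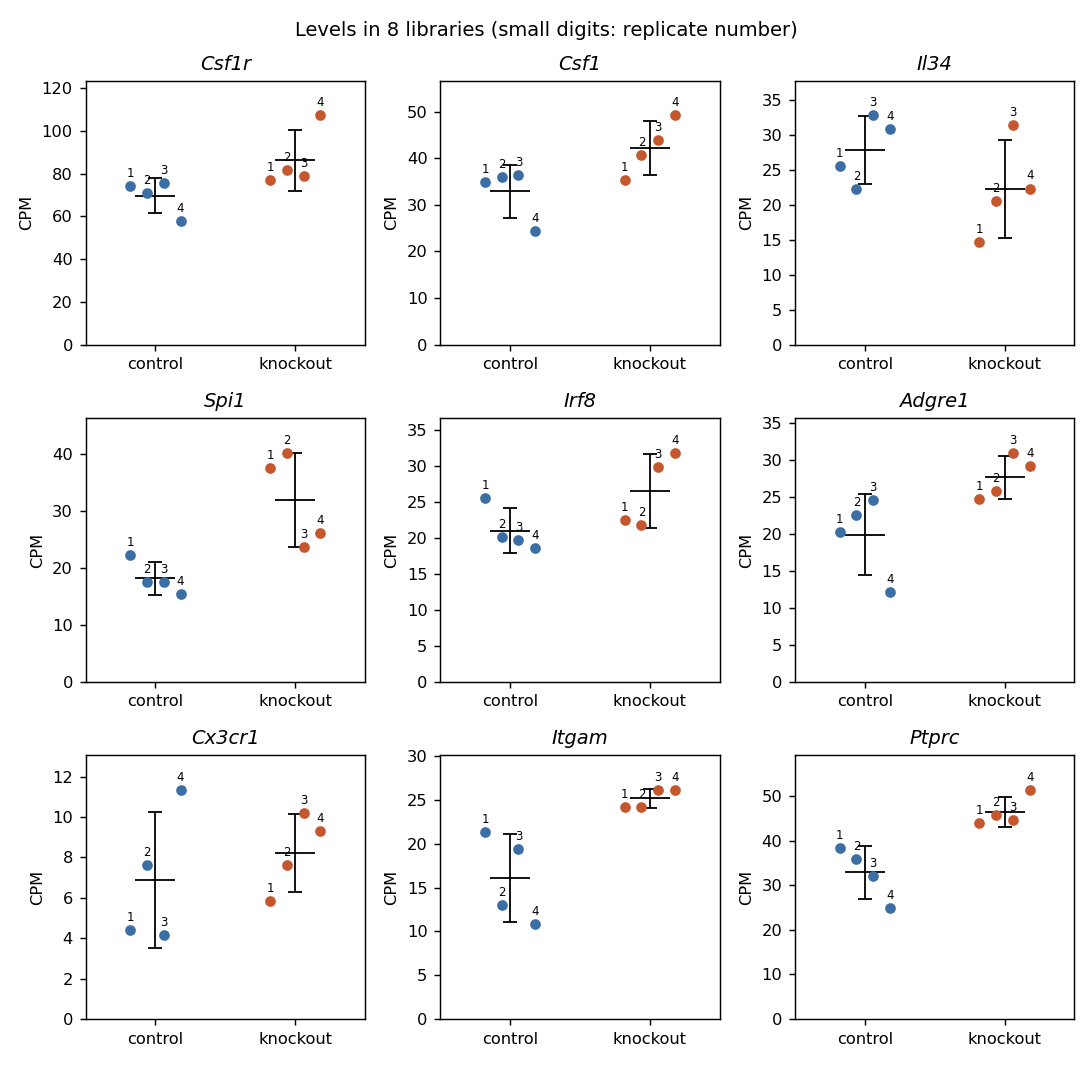
Levels of the 9 genes in CPM (counts scaled to a common library size, vertical axes from 0) in the 4 control and 4 knockout libraries; points are libraries with the replicate number above them, the horizontal line is the mean and the bars are the SD. Control replicate 4 is the lowest of the 8 libraries in 7 of the panels, and all knockout points are above all control points for Csf1r, Spi1, Adgre1, Itgam and Ptprc.

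Control replicate 4 was both the smallest library and the lowest for 7 of the 9 genes, all but Il34 and Cx3cr1. Over all genes tested it was the lowest for 18.3%. Library totals ran from 1538427 to 3053565 estimated counts, and a count of 0 would have allowed up to 3 counts, or 0.982 to 1.95 CPM by library, a limit that covers counting error only. Adipoq, the adiponectin gene of adipocytes, had 3759 to 9785 counts per library, and 4 of 7 genes of the epididymis were at 0 in all. Summed, these 7 genes reached 4.18 CPM in controls and 8.53 CPM in knockouts, and Adam7 among them had 0 to 22 counts per library. Cyp19a1 itself had 0 to 5.02 estimated counts per library, too few to check the deletion. Without control replicate 4 the number of the 9 genes with an unadjusted p under 0.05 went from 5 to 3, and the same number was left without control replicate 1, without knockout replicate 2 or without knockout replicate 4. The 3 were Spi1, Itgam and Ptprc each time. The share of all genes with such a p was not counted in these fits, so the drop cannot be read as particular to the 9 genes.

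Csf1r (ENSMUSG00000024621.15, chromosome 18, 61100598 to 61132149, GRCm38) was at 74.4, 71.0, 75.6 and 57.7 CPM in control replicates 1 to 4, where CPM are estimated counts scaled to a common, normalised library size. In knockout replicates 1 to 4 it was at 76.9, 81.5, 79.1 and 107 CPM. The groups did not overlap, but the gap between the lowest knockout and the highest control library was 1.34 CPM, and knockout replicate 4 lay well above the other 3. Its log2 fold change was 0.30 ± 0.14 (SE; edgeR adjusted p = 0.775), a 1.23-fold difference with a 95% interval of 1.003 to 1.52. Without knockout replicate 4 the log2 fold change was 0.18. Hmgxb3, annotated on the opposite strand, overlaps Csf1r from 61131277 to 61132149, the 3′ end of both genes. BRB-seq, the method of these libraries, reads 3′ ends, so the shared stretch is where reads of both genes would lie. Since the use of strand in counting is not stated, reads from the shared stretch cannot be told apart. Hmgxb3 had 14 to 62 counts per library and a log2 fold change of -0.33.

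The ligand genes had fold changes of opposite sign, and neither passed. Csf1 (ENSMUSG00000014599.10, chromosome 3, 107741048 to 107760469) was at 34.9, 36.0, 36.3 and 24.4 CPM in controls and 35.3, 40.7, 43.8 and 49.2 CPM in knockouts. Knockout replicate 1 lay among the controls and the other 3 knockouts above all of them. Its log2 fold change was 0.35 ± 0.17 (SE; edgeR adjusted p = 0.777), 1.28-fold with an interval of 0.997 to 1.63, and it was 0.25 without control replicate 4. Il34 (ENSMUSG00000031750.15, chromosome 8, 110741829 to 110805924), the second ligand gene, was at 25.5, 22.2, 32.7 and 30.8 CPM in controls and 14.7, 20.6, 31.4 and 22.3 CPM in knockouts. Knockout replicate 1 was the lowest library and knockout replicate 3 lay among the highest controls. Its log2 fold change was -0.31 ± 0.23 (SE; edgeR adjusted p = 0.912), a ratio of 0.808 with an interval of 0.578 to 1.13. The log2 fold change was -0.16 without knockout replicate 1 and -0.52 without knockout replicate 3.

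Within a library the ratio of Csf1 to Il34 does not depend on library size. The mean log2 ratio was 0.24 ± 0.45 in controls and 0.97 ± 0.35 in knockouts (SD, n = 4), a difference of 0.73. Control values ran from -0.34 to 0.70 and knockout values from 0.48 to 1.27, so the groups overlapped. The log2 ratio of Csf1 to Csf1r was -1.09 ± 0.11 in controls and -1.03 ± 0.13 in knockouts (SD, n = 4). That of Il34 to Csf1r was -1.33 ± 0.35 and -1.99 ± 0.47. These ratios were not tested.

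Spi1 had the largest fold change of the 9 genes. Spi1 (ENSMUSG00000002111.8, chromosome 2, 91082390 to 91115756) was at 22.4, 17.6, 17.5 and 15.4 CPM in controls and 37.5, 40.3, 23.7 and 26.2 CPM in knockouts. The knockouts fell into a higher pair, replicates 1 and 2, and a lower pair, replicates 3 and 4, whose lowest library was 1.30 CPM above the highest control. In the edgeR fit the log2 fold change was 0.79 with a standard error of 0.21 (edgeR adjusted p = 0.333), 1.73-fold with a 95% interval of 1.26 to 2.37. By unadjusted p Spi1 stood at rank 88 of 12480. Over the alternative settings its log2 fold change lay between 0.66 and 0.91 and its adjusted p between 0.0991 and 0.806.

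Irf8, the partner of PU.1, had another order of libraries. Irf8 (ENSMUSG00000041515.9, chromosome 8, 120736358 to 120756694) was at 25.5, 20.1, 19.7 and 18.6 CPM in controls and 22.4, 21.8, 29.9 and 31.8 CPM in knockouts. Here knockout replicates 3 and 4 were the higher pair, and control replicate 1 lay above the lower pair. For Irf8 the log2 fold change was 0.33 ± 0.20 (SE; edgeR adjusted p = 0.877), with an interval of -0.09 to 0.75. The log2 ratio of Spi1 to Irf8 was narrow in the controls, -0.27 to -0.17. In knockout replicates 1 to 4 it was 0.74, 0.89, -0.34 and -0.28, so that replicates 3 and 4 lay just below the controls and replicates 1 and 2 far above them.

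The pan-macrophage marker gene Adgre1 encodes the F4/80 antigen. Adgre1 (ENSMUSG00000004730.14, chromosome 17, 57358691 to 57483527) was at 20.3, 22.6, 24.7 and 12.2 CPM in controls and 24.7, 25.8, 31.03 and 29.2 CPM in knockouts. The groups were apart by only 0.0595 CPM. The log2 fold change was 0.46 ± 0.21 (SE; edgeR adjusted p = 0.771), 1.37-fold with an interval of 1.01 to 1.87. It was 0.30 without control replicate 4, which had 19 counts of this gene.

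Itgam encodes CD11b, the alpha chain of an integrin that myeloid cells use for adhesion and for uptake of complement-coated particles. Itgam (ENSMUSG00000030786.18, chromosome 7, 128062640 to 128118491) was at 21.3, 12.97, 19.4 and 10.8 CPM in controls and 24.2, 24.2, 26.2 and 26.1 CPM in knockouts. The knockouts were close together, with a coefficient of variation of 4.51% where counting alone would give about 12.5%, while the controls varied by 31.2%. The log2 fold change was 0.62 ± 0.22 (SE; edgeR adjusted p = 0.616), 1.54-fold with an interval of 1.11 to 2.13. The annotation places Gm49368 across the same region on the same strand, and 68.1% of the 31-base words of Itgam transcripts also occur elsewhere, nearly all of them in Gm49368. Gm49368 was assigned 0 counts in 7 libraries and 3.25 in knockout replicate 3, so the division of reads between this pair is uncertain. Of the other 8 genes at most 1.75% of words were shared, in Cx3cr1, which also has genes annotated on the opposite strand, as Il34 does. Words were compared on the transcript strand only. Stretches shared with genes on the opposite strand, as with Csf1r and Hmgxb3, are therefore not counted.

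The 250 bases before the RefSeq start site of Itgam (chr7:128062390-128062639, plus strand, GRCm38.p6) are shown because Itgam is a known target of PU.1 and its level and that of Spi1 were each above every control in all 4 knockouts. Capitals mark GAGGAA, a core of PU.1 sites, searched on both strands, so that the second match reads TTCCTC.
Itgam: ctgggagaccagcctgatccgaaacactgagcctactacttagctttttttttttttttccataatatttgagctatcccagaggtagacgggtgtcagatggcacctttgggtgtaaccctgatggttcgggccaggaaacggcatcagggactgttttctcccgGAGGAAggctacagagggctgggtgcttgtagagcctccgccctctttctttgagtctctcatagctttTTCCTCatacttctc
The matches begin 84 and 15 bases before the start site, the second on the opposite strand. GAGGAA was present in 23.3% of 32851 promoter windows of this length, so a match is common, and it is a description of letters and not of binding. Promoters of 5 of the 9 genes were in the RefSeq table, in 7 windows, of which those of Itgam and 1 of the windows of Ptprc held the word. The longer word GAGGAAGT, which contains the first, was in 2.44% of all windows and in none of the 7.

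Ptprc encodes CD45, the tyrosine phosphatase carried by nucleated cells of the blood lineage. Ptprc (ENSMUSG00000026395.16, chromosome 1, 138062861 to 138175708) was at 38.4, 36.0, 32.1 and 25.0 CPM in controls and 44.0, 45.9, 44.6 and 51.5 CPM in knockouts. The groups were 5.61 CPM apart, the widest gap of the 9 genes. The log2 fold change was 0.48 ± 0.16 (SE; edgeR adjusted p = 0.498), 1.40-fold with an interval of 1.11 to 1.76. Its adjusted p lay between 0.440 and 0.875 over the alternative settings.

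Cx3cr1 encodes the receptor for fractalkine and marks patrolling monocytes and some resident macrophages. Cx3cr1 (ENSMUSG00000052336.7, chromosome 9, 119901616 to 120069879) was at 4.42, 7.60, 4.18 and 11.4 CPM in controls and 5.84, 7.61, 10.2 and 9.29 CPM in knockouts, or 9.32 to 28.3 estimated counts. Its highest library was a control, replicate 4, in which 7 of the other genes were at their lowest. The log2 fold change was 0.30 ± 0.38 (SE; edgeR adjusted p = 0.946), with an interval of -0.52 to 1.12, which spans 0. It depended on single libraries, at 0.62 without control replicate 4, 0.12 without control replicate 3, 0.13 without control replicate 1 and 0.19 without knockout replicate 3.

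**Figure D2:**
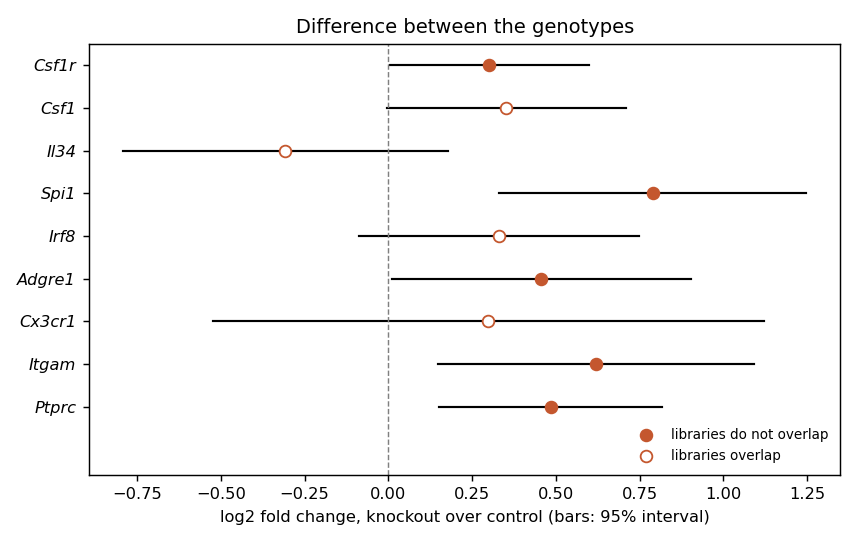
Log2 fold change of the knockout over the control libraries for the 9 genes (points) with 95% intervals from the edgeR fit (bars); filled points mark genes in which each knockout was above each control, and the dashed line is 0. Spi1 is highest at 0.79 and Il34 lowest at -0.31, and the intervals of 4 genes span 0.

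The intervals of 5 genes excluded 0 and those of Csf1, Il34, Irf8 and Cx3cr1 did not. The upper bounds reached at most 2.37-fold, for Spi1. Spread within a group was close to counting error in some cases and above it in others. In the controls the coefficient of variation was 16.2% for Spi1, where counting gives about 16.1%, and 14.7% for Irf8, where counting gives about 14.9%. For Csf1r it was 11.8% against 8.19%, and for Cx3cr1 48.8% against 27.0%. In the knockouts it was 25.8% against 11.3% for Spi1 and 19.3% against 12.4% for Irf8, both above counting. There Csf1r was at 16.4% against 6.82% and Cx3cr1 at 23.4% against 22.3%.

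Relative to Ptprc in the same library, the other 8 genes overlapped between the genotypes. The mean log2 ratio of Adgre1 to Ptprc was -0.75 in both groups, with an SD of 0.29 in controls and 0.15 in knockouts (n = 4). Itgam to Ptprc differed by 0.18 and Spi1 to Ptprc by 0.27, the knockout being higher. Csf1r to Ptprc went the other way, 1.09 ± 0.15 in controls and 0.88 ± 0.12 in knockouts (SD, n = 4). The most distant was Il34, at -0.24 ± 0.48 and -1.11 ± 0.45. The median difference of the 8 genes was -0.16, and -0.06 without knockout replicate 1.

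**Figure D3:**
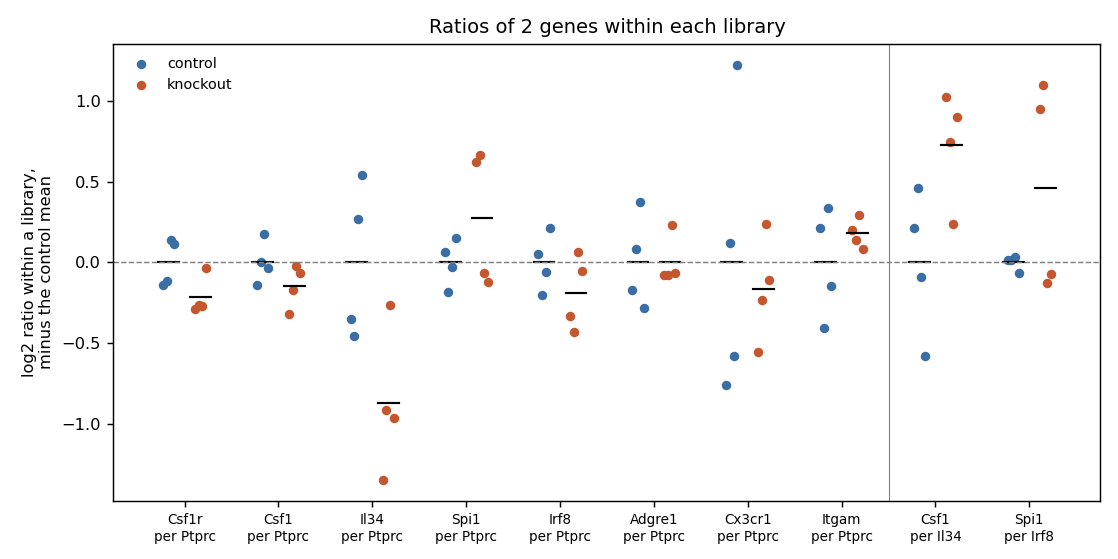
Log2 ratios of 2 genes within each library, with the control mean set to 0 (vertical axis), for 8 genes relative to Ptprc and, right of the grey line, for Csf1 relative to Il34 and Spi1 relative to Irf8; points are libraries and black lines are group means. The points of the groups overlap in all 10 ratios, and Il34 relative to Ptprc is the furthest from 0 in the knockout mean.

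Likeness of pattern was described by the correlation of log2 CPM over the 8 libraries after each group had been centred on its mean, among 7443 genes with a mean of 20 CPM or more. These values share libraries and depth, the highest of so many genes are high by selection, and no p is given. Nearest to Csf1r was Klf10 (Pearson r = 0.99, Spearman rho = 1.00), followed by Dock8, Fez2, Zfp664 and Plpp6, all at 0.97 or more. Without the libraries farthest from the median of Csf1r, control replicate 4 and knockout replicate 4, these 5 were at 0.93 to 0.98. Among the 9 genes Csf1 was the nearest to Csf1r (r = 0.87, rho = 0.95, rank 152), at 0.80 without those libraries. Ptprc followed at 0.79, while Spi1 was at -0.05 and Cx3cr1 at -0.38.

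Nearest to Csf1 were Stk19, Ppp3r1, Adam9, Mdfic and Crtac1, at 0.98 to 0.99 over 8 libraries. Without control replicate 4 and knockout replicate 1, the libraries farthest from the median of Csf1, they were at 0.84 to 0.92. Adgre1 was at 0.90 (rho = 0.81, rank 86) and at 0.58 without those libraries, so this likeness rests in part on them. Il34 was at 0.19.

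The wider CSF1R signalling list held 26 genes, the receptor and its ligands included, of which 24 were tested and none passed. Of the 24, 20 were higher and 4 lower, with a median log2 fold change of 0.22, and 5 had an unadjusted p under 0.05 with the knockout higher. The smallest p belonged to Tyrobp, the gene of the signalling adaptor DAP12, at 41.6 ± 4.81 CPM in controls and 61.2 ± 6.08 CPM in knockouts (SD, n = 4), a log2 difference of 0.55 (adjusted p = 0.260, edgeR), and the groups did not overlap. Dok2, an adaptor gene, and Inpp5d, the gene of the lipid phosphatase SHIP1, had log2 fold changes of 0.82 and 0.84, with overlapping libraries. Fyn, a Src-family kinase gene, was at 22.3 ± 2.48 and 29.5 ± 1.28 CPM (SD, n = 4), a log2 difference of 0.40 (adjusted p = 0.695, edgeR).

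Of 25 myeloid transcription factor genes 23 were tested and none passed. The median log2 fold change was 0.23, with 18 higher and 5 lower, and 6 had an unadjusted p under 0.05, 5 of them higher. After Spi1 the smallest p belonged to Id2, an inhibitor of helix-loop-helix factors, which was lower in the knockout, at 67.8 ± 8.25 against 47.1 ± 10.3 CPM (SD, n = 4), a log2 difference of -0.52 (adjusted p = 0.482, edgeR). Irf5, an interferon regulatory factor gene, was at 12.8 ± 1.36 and 19.7 ± 4.45 CPM (SD, n = 4), a log2 difference of 0.62 (adjusted p = 0.669, edgeR). Mitf, a helix-loop-helix leucine zipper factor gene, was at 14.9 ± 4.21 and 21.6 ± 1.07 CPM (SD, n = 4), a log2 difference of 0.52 (adjusted p = 0.732, edgeR).

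Other colony-stimulating factors and their receptors made a list of 14 genes, of which 8 were tested and none passed. The ligand genes Csf2, Csf3 and Il3 were at 0 counts in all 8 libraries. The median log2 fold change was 0.18, with 5 higher and 3 lower, and 3 of the higher had an unadjusted p under 0.05. Csf2ra, the alpha chain of the GM-CSF receptor, was at 27.1 ± 4.15 and 38.4 ± 3.60 CPM without overlap (SD, n = 4), a log2 difference of 0.51 (adjusted p = 0.498, edgeR). Csf2rb2 and Tnfrsf11a, the RANK receptor gene, had log2 fold changes of 0.62 and 0.61, and Kit, the stem cell factor receptor gene, of -0.56, all 3 with overlapping libraries.

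In the list of other pan-macrophage markers 3 of 14 tested genes passed, all higher in the knockout, where 0.12% of all genes passed upward. They were the cathepsin gene Ctss, the lysozyme gene Lyz2 and Cd68. Ctss also passed without each library in turn. Without control replicate 2 neither Lyz2 (edgeR adjusted p = 0.0551) nor Cd68 (edgeR adjusted p = 0.0786) passed. Cd68 also failed to pass without control replicate 3, knockout replicate 1 or knockout replicate 2, at edgeR adjusted p-values of 0.100, 0.0621 and 0.0984. Cd68, which encodes a scavenger receptor of lysosomal membranes, rose from 36.3 ± 10.1 to 80.6 ± 10.8 CPM (SD, n = 4), a log2 difference of 1.13 (adjusted p = 0.0156, edgeR). Of the rest, Mpeg1, the pore-forming perforin-2 gene, was at 29.3 ± 7.20 and 52.6 ± 6.25 CPM (SD, n = 4), a log2 difference of 0.86 (adjusted p = 0.108, edgeR). Sirpa and Mrc1 had log2 fold changes of 0.34 and 0.31. The list median was 0.36, with 12 higher and 2 lower. The log2 ratio of Cd68 to Csf1r in the same library was -1.36 to -0.58 in controls and -0.55 to 0.24 in knockouts; Cd68 was set against Csf1r because it had passed, so this ratio is a description only.

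All 15 genes of the leukocyte list, Ptprc among them, were tested and higher in the knockout, with a median of 0.59; none passed and 7 had an unadjusted p under 0.05. Laptm5, a lysosomal membrane protein gene of blood cells, was at 71.0 ± 12.5 and 111 ± 6.15 CPM (SD, n = 4), a log2 difference of 0.63 (adjusted p = 0.108, edgeR). The tetraspanin gene Cd53 and the actin-bundling gene Lcp1 had log2 fold changes of 0.63 and 0.59. In all 3 of these genes each knockout was above each control. Summed over the list, levels were 293 to 451 CPM in the control, control replicate 4 being the lowest, and 504 to 579 CPM in knockouts.

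The partners of CD11b and of the fractalkine receptor made a list of 12 genes, 11 of them tested, with a median of 0.25 and none past the threshold, while 4, all higher, had an unadjusted p under 0.05. Itgb2, the beta chain that pairs with CD11b, was at 12.1 ± 4.32 and 25.1 ± 0.642 CPM without overlap (SD, n = 4), a log2 difference of 1.02 (adjusted p = 0.222, edgeR). The log2 ratio of Itgam to Itgb2 was 0.27 to 0.71 in controls and -0.03 to 0.03 in knockouts, a description that was not tested. Itgb2 had 14 to 78 counts per library, and the division of reads between Itgam and Gm49368 is uncertain. Counting alone would give Itgam a variation of about 12.5% in the knockouts, so the narrow knockout range is less than counting would usually leave. Itgax, the CD11c chain, was at 4.17 ± 2.26 and 11.8 ± 3.68 CPM (SD, n = 4), a log2 difference of 1.47 (adjusted p = 0.418, edgeR). Ccl2, a chemokine gene that draws in monocytes, had a log2 fold change of 0.82, and Cx3cl1, the fractalkine gene, of -0.24, both with overlapping libraries.

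Markers of other cells that carry some of these genes were examined beside them. In the monocyte list 5 of 7 genes were tested, none passed and the median was 0.05. The summed level was 132 to 134 CPM in controls and 105 to 155 CPM in knockouts. Most of it was Ace (mean 69.0 CPM in controls and 71.3 CPM in knockouts) and Ccr2 (37.0 and 38.5 CPM). By fold change 3 of the tested genes were higher and 2 lower, Ly6c2 at -0.81 and Plac8 at -0.39. Neutrophil markers, mostly Cxcr2 (mean 27.1 and 30.6 CPM), summed to 42.7 to 49.2 and 44.6 to 51.1 CPM, with 3 of 8 tested and Ly6g at 0 in all libraries. T cell markers summed to 18.6 to 21.9 and 18.8 to 24.7 CPM with 2 of 9 tested, and NK cell markers to 4.49 to 14.4 and 7.90 to 13.1 CPM with none of 7 tested. Dendritic cell markers summed to 42.3 to 48.9 and 46.3 to 65.1 CPM, B cell markers, mostly Ighm, to 401 to 995 and 311 to 822 CPM, and mast cell markers to 33.2 to 54.8 and 24.3 to 52.0 CPM. None of the tested genes in these lists passed.

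Of the cells that form the tissue, adipocyte markers were lower by fold change in 10 of 12 genes with a median of -0.14, and none passed. Their summed level was 61059 to 79399 CPM in controls and 51448 to 75995 CPM in knockouts. Stromal markers had a median of 0.02 (8 of 10 higher), mesothelial markers of -0.08 and endothelial markers of 0.13 (6 of 8 higher). The endothelial list summed to 464 CPM in control replicate 4, to at most 952 CPM in the other controls and to 694 to 912 CPM in knockouts. Blood genes were lower in 5 of 5 tested, with a median of -0.30. The part of these shifts in the values of the 9 genes was not tested.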

How the data were processed

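RNA-seq of total RNA was available for 8 libraries. Per the labels' protocols they were made by BRB-seq, a 3′-end method with oligo-dT primed cDNA, Tn5 tagmentation and 10 cycles of PCR, with 51 bases read. The deposited table holds estimated counts per gene, not normalised; Salmon and GRCm38 are named in the submitters' processing notes, with no version. Of the values above 0, 59.6% were whole. Annotation, molecular identifiers and use of strand are not given in the sources used here. The authors' estimated counts were rounded for the count tests; 34652 of 34866 identifiers matched GENCODE release M21 (GRCm38), the source of symbols and coordinates. The design had been written for counts and the same test was kept.

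The comparison of genotypes used edgeR 4.0.16 under R 4.3.3 (robust quasi-likelihood F test, TMM factors, filterByExpr filter, Benjamini-Hochberg adjustment over 12480 genes, threshold 0.05). The test was first run on simulated data with known changes. CPM uses TMM-scaled library sizes; log2 CPM for likeness has a prior count of 2. Chi-square per degree of freedom between replicates was 4.48 to 9.4, above what a library deposited again would give. The genes named are the 9 members and, of each list, genes past the threshold and up to 4 with the smallest p. Named after their values were seen were Cx3cl1, Adipoq, Ighm, Adam7, Ace, Ccr2, Ly6c2, Plac8 and Cxcr2. In the list of myeloid transcription factors 1 gene is not reported here. Members and lists were chosen with earlier results of these data known. Alternatives were RLE factors, no low-count filter, DESeq2 1.42.0, limma-voom with quality weights for whole libraries (limma 3.58.1), the replicate number as a block, and each library left out.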

Additional observations from a re-analysis of the deposited data

Results flagged for a closer look

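Among 18 groups of 4 libraries, 1 for each gene and genotype, 2 held a library whose gap to its nearest neighbour as a share of the group's range was above Dixon's critical value for 4 values, where chance gives 0.9. Csf1r was at 107 CPM in knockout replicate 4, against 76.9 to 81.5 CPM in the other knockouts. Csf1 was at 24.4 CPM in control replicate 4, the smallest library, against 34.9 to 36.3 CPM in the other controls.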

How the results depend on the processing

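None of the 9 genes passed an adjusted p of 0.05 in any of the 13 alternative fits, and none of the 117 fold changes that these fits gave for single genes changed sign. Adjusted p-values ranged from 0.0991 (Spi1) to 1.00. The median log2 fold change of the 9 genes lay between 0.268 and 0.445 when 1 library was left out. The number of the 9 with an unadjusted p under 0.05 and the knockout higher, a count chosen after seeing the data, was 5. It was 3 with DESeq2, with limma-voom and with the replicate block, and 3 to 6 when 1 library was left out. The share of all genes with such a p is given for the main edgeR fit only, so these other counts have no background beside them. The number whose libraries did not overlap was 5 to 6 when 1 library was left out, where 3.68 to 4.42% of all genes tested did not overlap with the knockout higher, against 2.52% with all libraries. Leaving out a library cannot undo such a separation, so this number could not fall below 5 and is no check of it. Of all genes 21 passed; this was 55 with DESeq2, 58 without the low-count filter, 6 with the replicate block and 4 to 43 when 1 library was left out, the lowest without control replicate 2 and the highest without control replicate 4. Of the genes in the 6 related lists 3 passed; this was 5 with DESeq2, 7 without the low-count filter, 1 with the replicate block, where Ctss still passed and Lyz2 and Cd68 did not, and 1 to 3 when 1 library was left out. After centring on the group mean, control and knockout replicate 1 correlated at 0.25, replicates 2 at -0.06, replicates 3 at -0.01 and replicates 4 at -0.24. The labels state no pairing, and correlations this mixed cannot settle whether the replicate numbers pair the libraries. Relative to the summed leukocyte list in place of Ptprc, the median difference of log2 ratios went from -0.156 to -0.208; relative to Ptprc it lay between -0.192 and -0.062 when 1 library was left out. The cause of these changes was not tested. Cx3cr1 had 9.32 to 28.3 estimated counts per library, and its log2 fold change was 0.485 with limma-voom. That fit also weighted whole libraries, so the parts of the tool and of the weights cannot be told apart. Its control libraries varied by 48.8%, where counting gives about 27.0%.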
